A study of Mus musculus with 8 samples.

Results

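The genes described here are 10 of the 55487 genes listed in each library, chosen by name as markers of connective tissue and of blood vessels. They are 3 fibrillar collagen genes (Col1a1, Col1a2 and Col3a1), 2 small proteoglycan genes (Lum and Dcn), the mural cell receptor gene Pdgfrb, and 4 endothelial genes (Pecam1, Cdh5, Kdr and Vwf). All 10 names matched 1 gene each in the GENCODE annotation. The study asked how tacrolimus, an inhibitor of the phosphatase calcineurin, affects lymphocytes in a mouse melanoma. Cells of B16F10, a melanoma line derived from the C57BL/6 strain, were grown under the skin of C57BL/6 mice, and dosing began 7 to 9 days after injection, at tumors of about 50 mm3. One group of 4 mice received tacrolimus at 3 mg/kg by intraperitoneal injection every 5 days. The other 4 received vehicle on the same schedule, and the series text calls these mice untreated. Tumors were taken on day 6 of treatment and digested, and RNA from the CD8+ lymphocytes that flow cytometry sorted from them gave 1 library per mouse.

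Fibroblasts build the fibrous part of connective tissue. Chains encoded by Col1a1 and Col1a2 assemble into type I collagen, and the chain encoded by Col3a1 forms type III collagen, which is abundant in skin and vessel walls. Lumican (Lum) and decorin (Dcn) bind collagen fibrils and affect their width. In vessels, endothelial cells line the lumen and mural cells wrap around the capillaries. Pecam1 and Cdh5 encode adhesion proteins of endothelial junctions, Kdr encodes the main signaling receptor for VEGF-A, and Vwf encodes a clotting protein stored in endothelial cells and platelets. Pdgfrb encodes the receptor through which endothelial PDGF-B recruits mural cells.

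The values are FPKM, fragments of RNA scaled to transcript length and library size, so that levels of different genes can be compared. Depth was similar between libraries, at an estimated 15560000 to 19100000 fragments. The libraries held more than the labelled cell type. A list of 10 melanoma genes summed to between 19038 and 34200 FPKM, whereas 12 T cell genes summed to between 51.0 and 1478 FPKM. Cd8a, the gene of the marker used in the sort, was at 3.40 to 33.2 FPKM after tacrolimus and at 36.9 to 153 FPKM after vehicle. Vehicle replicate 1 stood apart from the rest, with the highest T cell sum (1478 FPKM) and the lowest melanoma sum (19038 FPKM).

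Other markers of connective tissue and of blood vessels were present in part. Of 30 further fibroblast and fibrillar matrix genes 20 passed the filter used for testing (at least 1 FPKM in at least 4 libraries), and the list summed to 271 to 498 FPKM. Sparc, a matrix protein gene that many cell types including melanoma cells express, made up 137 to 304 FPKM of this. Other genes of the list that passed included Col6a3, Postn, Mmp2 and Fbln2. Some fibroblast genes, picked here by name, were low and did not pass. Pdgfra, the receptor gene that usually marks fibroblasts, reached at most 0.23 FPKM in any library, Tcf21 at most 0.12 FPKM and Twist1 at most 0.14 FPKM. Fap, a gene of activated fibroblasts, lay between 0.07 and 0.87 FPKM. The collagen and proteoglycan genes are called matrix genes below, by what they encode. Of 26 further blood endothelial genes 15 passed, and the list summed to 87.3 to 247 FPKM. Flt1 (a VEGF receptor) was at 1.22 to 11.2 FPKM and Egfl7 (a secreted endothelial protein) at 15.8 to 45.7 FPKM. Tek, an angiopoietin receptor gene, stayed at or under 0.43 FPKM.

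Promoter sequences from RefSeq (build GRCm38.p6) were examined for 3 of the 10 genes, and the promoters of the other genes were not examined. These 3 are shown because Col1a2 and Col3a1 were the closest pair of genes across libraries, and Kdr belonged to a separate set. Each line gives the 120 bases before the first start of the principal transcript, taking the more upstream of its GENCODE and RefSeq starts, 5′ to 3′ on the strand of the gene. Capitals mark every match, on either strand, to any of 3 motifs. These were the CCAAT box core (the letters CCAAT), a sequence of the TATA box (the letters TATAAA), and the core that ETS factors bind (the letters GGAA).
Col1a2, chr6:4505373-4505492, plus strand: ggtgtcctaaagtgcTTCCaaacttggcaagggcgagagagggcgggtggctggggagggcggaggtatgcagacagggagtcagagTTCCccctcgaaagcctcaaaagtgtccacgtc
Col3a1, chr1:45311418-45311537, plus strand: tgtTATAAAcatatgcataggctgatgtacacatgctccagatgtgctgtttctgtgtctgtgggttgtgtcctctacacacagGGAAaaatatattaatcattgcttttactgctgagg
Kdr, chr5:75978459-75978578, minus strand: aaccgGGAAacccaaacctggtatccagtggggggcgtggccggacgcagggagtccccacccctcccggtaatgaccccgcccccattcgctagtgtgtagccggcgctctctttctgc
The windows of the collagen pair differed in base composition. The Col3a1 window was 40% G and C with 0 CpG dinucleotides, the Col1a2 window 60% with 5, and the Kdr window 65.8% with 9, against medians of 54.2% and 3 over 32817 promoter windows of the same length. The windows of all promoters end at the RefSeq start. For Col1a2 that start is at 4505618, and the window shown ends at 4505492. The values for Col1a2 thus compare unlike regions, and the bases just before its RefSeq start were not scanned. GGAA occurred in all 3 windows and in 73.4% of all promoters. TATAAA occurred in the Col3a1 window alone of the 3 and in 6.35% of all promoters. Its first base in Col3a1 lay at -117 from the start, and whether it acts as a TATA box was not tested. CCAAT occurred in none of the 3 and in 21.3% of all promoters. Of the 8 annotated Col1a2 transcripts, 1 begins further upstream, and the window lies in an intron of it.

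Col3a1 was the highest of the 10 genes in every library. Its gene occupies chromosome 1 from 45311538 to 45349706 on the plus strand (GRCm38), and 1 of its exons overlaps an annotated microRNA gene, Gm47302, on the same strand. The 4 tacrolimus libraries held 33.1, 20.1, 18.1 and 17.8 FPKM, in the order of replicates 1 to 4, and the 4 vehicle libraries 41.8, 28.1, 24.9 and 23.1 FPKM. Replicate 1 was the highest library of both groups. Tacrolimus replicate 1 exceeded 3 of the 4 vehicle libraries, so the groups overlapped, although the other 3 tacrolimus libraries lay under every vehicle library. The means were 22.3 ± 7.28 FPKM after tacrolimus and 29.5 ± 8.47 FPKM after vehicle (SD, n = 4 each).

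Col1a2 (chromosome 6, 4504814 to 4541544, plus strand) and Col1a1 (chromosome 11, 94936224 to 94953042, plus strand) encode the chains of 1 protein and lay close together. Col1a2 was at 9.20, 4.65, 5.98 and 5.04 FPKM in tacrolimus replicates 1 to 4 and at 11.9, 8.53, 6.58 and 7.74 FPKM in the vehicle libraries. Its highest library in either group was again replicate 1, and tacrolimus replicate 1 again lay above 3 of the 4 vehicle libraries. Col1a1 was at 8.55, 5.18, 4.33 and 4.91 FPKM after tacrolimus and at 8.13, 9.19, 7.11 and 6.67 FPKM after vehicle. Tacrolimus replicate 1 lay among the vehicle libraries, and the other 3 tacrolimus libraries were the lowest of the 8. The ratio of Col1a1 to Col1a2 FPKM stayed between 0.681 and 1.11, with a median of 0.952.

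Dcn and Lum are neighbors on chromosome 10 (Dcn 97479609 to 97518143, Lum 97565128 to 97572703, both plus strand), but their values ran differently across the libraries. Dcn was at 4.73, 2.89, 2.07 and 3.41 FPKM after tacrolimus and at 9.31, 3.69, 3.07 and 4.71 FPKM after vehicle. It peaked in replicate 1 of each group, as the collagen genes Col1a2 and Col3a1 did. Lum was at 2.10, 2.72, 3.07 and 3.11 FPKM after tacrolimus and at 2.98, 5.73, 3.99 and 5.56 FPKM after vehicle. Its lowest library in both groups was replicate 1, the library where Dcn was highest. The groups overlapped for Lum only through vehicle replicate 1, which lay under tacrolimus replicates 3 and 4. The ratio of Lum to Dcn was accordingly 0.320 in vehicle replicate 1 and 0.444 in tacrolimus replicate 1, and 0.912 to 1.55 in the other 6 libraries.

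**Figure D1:**
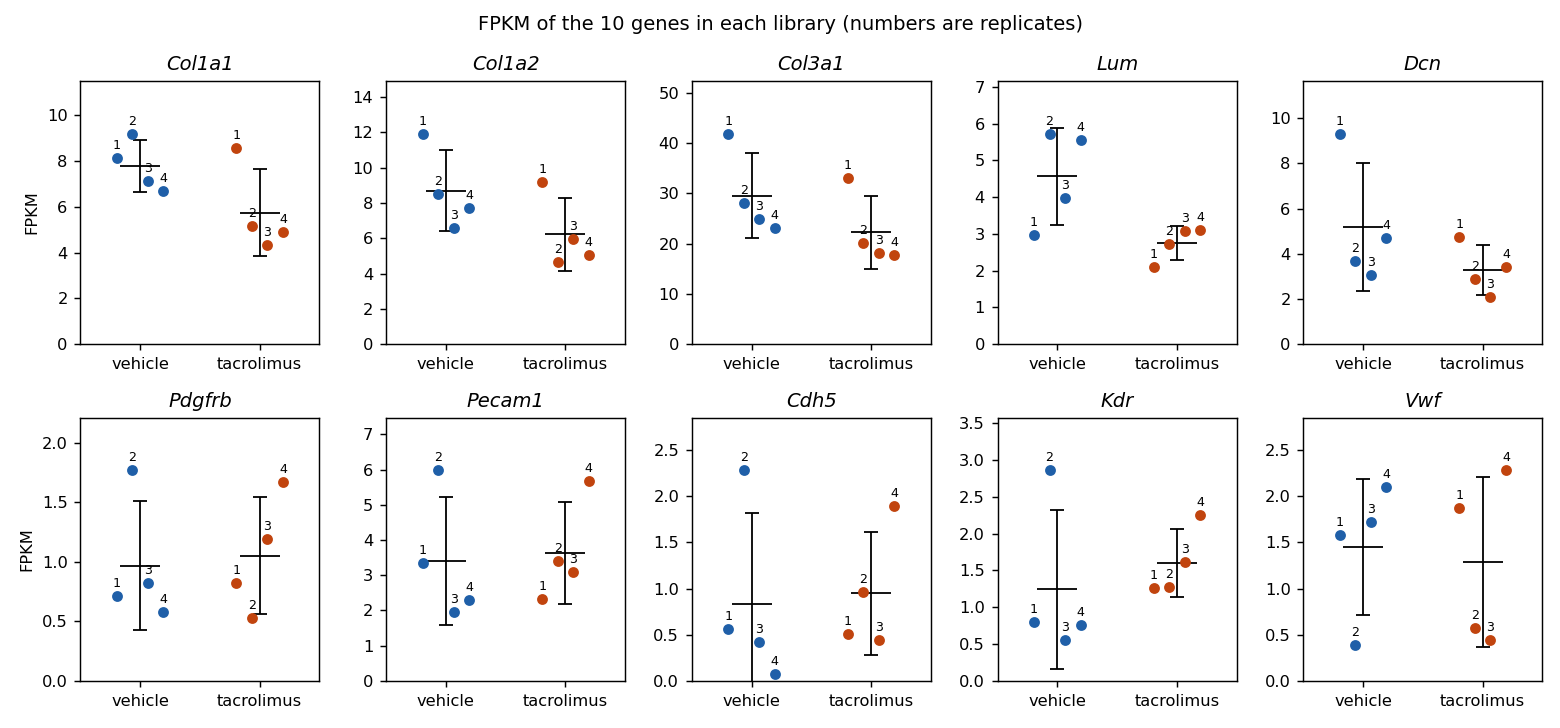
FPKM (linear axis from 0, its own scale per gene) of the 10 genes in the 4 vehicle libraries (blue) and the 4 tacrolimus libraries (orange), numbered by replicate, with horizontal lines for the mean and bars for ± 1 SD, which are not drawn under 0. Col3a1 reaches 41.8 FPKM while Cdh5 stays at or under 2.28 FPKM, and the groups overlap for every gene.

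Mural and endothelial genes had lower means than the collagen genes. Pdgfrb (chromosome 18, 61045150 to 61085061, plus strand) was at 0.82, 0.53, 1.19 and 1.67 FPKM after tacrolimus and at 0.71, 1.77, 0.82 and 0.58 FPKM after vehicle. Pecam1 (chromosome 11, 106654217 to 106750628, minus strand) was at 2.33, 3.41, 3.10 and 5.68 FPKM after tacrolimus and at 3.36, 5.98, 1.96 and 2.29 FPKM after vehicle. For both genes vehicle replicate 2 and tacrolimus replicate 4 were the highest libraries, 1 in each group.

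The same pair of libraries led for the other junction gene and for the VEGF receptor gene. Cdh5 (chromosome 8, 104101625 to 104144511, plus strand) was at 0.51, 0.96, 0.44 and 1.89 FPKM after tacrolimus and at 0.56, 2.28, 0.42 and 0.07 FPKM after vehicle. The lowest of these, in vehicle replicate 4, rests on an estimated 4 fragments. Kdr (chromosome 5, 75932827 to 75978458, minus strand) was at 1.26, 1.28, 1.61 and 2.26 FPKM after tacrolimus and at 0.80, 2.86, 0.55 and 0.76 FPKM after vehicle. Every tacrolimus library was above 3 of the 4 vehicle libraries, and vehicle replicate 2 was above all of the tacrolimus libraries.

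Vwf (chromosome 6, 125546774 to 125686679, plus strand) followed neither set. It was at 1.87, 0.57, 0.44 and 2.28 FPKM after tacrolimus and at 1.58, 0.39, 1.72 and 2.10 FPKM after vehicle. Its values fell into 2 ranges, 0.39 to 0.57 FPKM in tacrolimus replicates 2 and 3 and vehicle replicate 2, and 1.58 to 2.28 FPKM in the other 5 libraries. Vehicle replicate 2, the highest library for the other endothelial genes, was the lowest for Vwf. Of 9 listed genes of platelets, which also hold this protein, 3 passed the filter. Pf4 held most of the summed level of that list in every library. Pf4, a platelet chemokine gene that some myeloid cells also express, was at 47.6 to 137 FPKM after tacrolimus and reached 589 FPKM in vehicle replicate 1, and the part of platelet RNA in the Vwf values was not tested.

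By the mean of all 8 libraries the order was Col3a1, Col1a2, Col1a1, Dcn, Lum, Pecam1, Kdr, Vwf, Pdgfrb and Cdh5. Only Col3a1 over Col1a2 and Pecam1 over Kdr held in 8 of 8 libraries. Col1a1 was above Dcn in 7 libraries and Vwf above Pdgfrb in 6. The remaining neighbors were not separated from each other, since Col1a2 was above Col1a1 in 5 libraries, Dcn above Lum in 4, Lum above Pecam1 in 2, Kdr above Vwf in 3 and Pdgfrb above Cdh5 in 5.

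Between treatments, the 5 matrix genes had lower means after tacrolimus, and Pecam1 and Kdr had slightly higher ones, but none of these differences passed the test across all genes. Differences were taken on the log2(FPKM + 1) scale and tested with limma over the 13032 genes with at least 1 FPKM in at least 4 libraries. At an adjusted p under 0.05 the test called 0 of 13032 genes (0%), and 0 of the 8 members that entered it. At an unadjusted p under 0.05 it gave 208 genes with a higher mean (1.60%) and 2056 with a lower one (15.8%) after tacrolimus, together 17.4% of those tested. Lum was the only one of the 8 members among them. In these bulk libraries, fewer cells of a type and less RNA per cell cannot be told apart.

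Lum had the smallest p of the 10 genes. Its mean was 2.75 ± 0.467 FPKM after tacrolimus and 4.57 ± 1.32 FPKM after vehicle (SD, n = 4 each). On the log2 scale this was a difference of -0.55 (SE 0.22, unadjusted p = 0.0348, adjusted p = 0.257, limma). It lay at or under -0.44 whichever library was left out. Over all alternative settings it ran from -0.70 to -0.34, with an unadjusted p of up to 0.131 (limma). After median-of-ratios or upper-quartile scaling, 0 of 8 members had an unadjusted p under 0.05 (limma), so that of Lum depended on the scaling.

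For the collagen genes the differences were similar in size to each other. Col1a2 differed by -0.44 (SE 0.24, adjusted p = 0.360, limma), with means of 6.22 ± 2.07 FPKM after tacrolimus and 8.70 ± 2.30 FPKM after vehicle (SD, n = 4 each). Col1a1 differed by -0.41 (SE 0.22, adjusted p = 0.340, limma), with means of 5.74 ± 1.90 and 7.78 ± 1.12 FPKM. Col3a1 differed by -0.40 (SE 0.24, adjusted p = 0.398, limma). For Col3a1 and Col1a2, leaving out tacrolimus replicate 1 or vehicle replicate 1 moved the value most, to -0.60 or -0.22 for Col3a1 and to -0.62 or -0.29 for Col1a2. Col1a1 ran from -0.59 to -0.31 with single libraries left out. Dcn, the collagen-binding proteoglycan gene, differed by -0.47 (SE 0.31, adjusted p = 0.435, limma), with means of 3.28 ± 1.12 and 5.20 ± 2.83 FPKM, and by -0.20 without vehicle replicate 1. Col1a2, Col3a1 and Dcn were highest in vehicle replicate 1, the library with the highest T cell sum.

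Endothelial genes gave smaller or less certain differences. Kdr differed by 0.30 (SE 0.31, adjusted p = 0.610, limma), with means of 1.60 ± 0.467 FPKM after tacrolimus and 1.24 ± 1.08 FPKM after vehicle (SD, n = 4 each). Without vehicle replicate 2 the difference was 0.60 (SE 0.23, unadjusted p = 0.0291, adjusted p = 0.284, limma), so 1 library moved this value by over 1.5 times. Kdr entered the test through the 4 tacrolimus libraries and 1 vehicle library, which favors a higher tacrolimus mean among genes of its level.

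Pecam1 differed by 0.11 (SE 0.31, adjusted p = 0.869, limma), with means of 3.63 ± 1.44 FPKM after tacrolimus and 3.40 ± 1.82 FPKM after vehicle (SD, n = 4 each). Vwf differed by -0.13 (SE 0.36, adjusted p = 0.868, limma), with means of 1.29 ± 0.923 and 1.45 ± 0.738 FPKM. For both genes the SE exceeded the difference, and the sign depended on single libraries. Pdgfrb and Cdh5 did not pass the filter, with 3 and 2 libraries at 1 FPKM or more. Tested without the filter, Pdgfrb differed by 0.06 (SE 0.26, adjusted p = 0.919, limma) and Cdh5 by 0.17 (SE 0.38, adjusted p = 0.851, limma).

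A lower mean after tacrolimus was common in these values. Of all genes tested, 75.7% had a lower mean after tacrolimus, and the median difference of all genes was -0.19, beside 6 of 8 members and a members' median of -0.40. After scaling by the median of ratios the median of all genes was -0.0013 and that of the members -0.20. Under that scaling 675 genes with a higher mean and 801 with a lower one had an unadjusted p under 0.05. The 8 genes kept their signs under both other scalings, with the 5 matrix genes below the median of all genes and Pecam1 and Kdr above it. No member had groups that did not overlap, against 11.0% of all genes tested, 10.2% with the tacrolimus libraries lower and 0.767% with them higher.

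**Figure D2:**
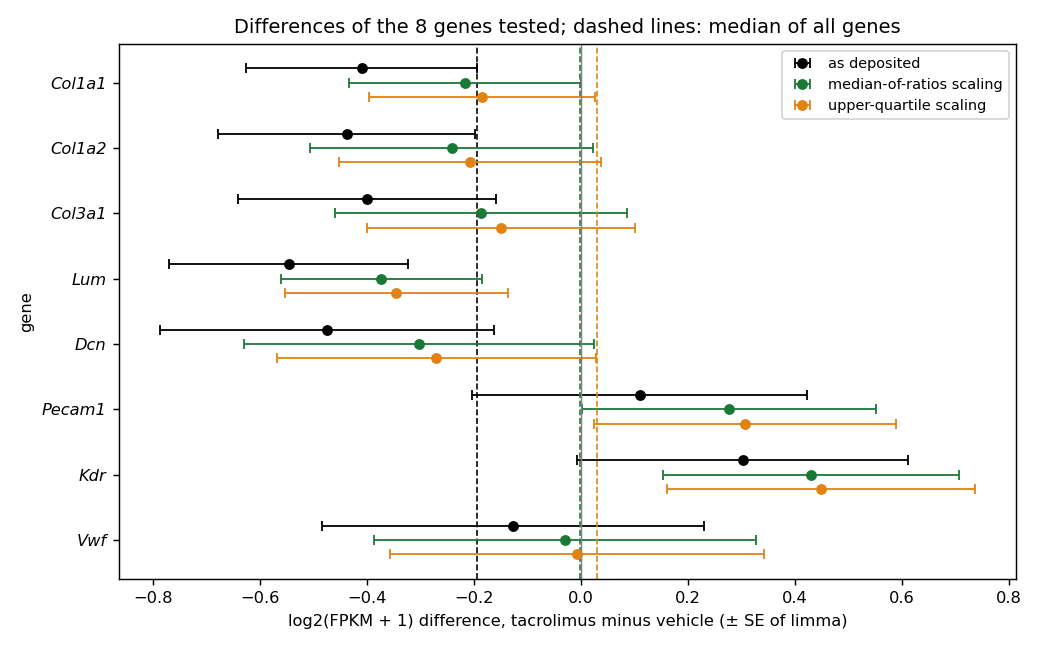
Difference in log2(FPKM + 1), tacrolimus minus vehicle, for the 8 genes tested, with bars for ± 1 SE from limma, as deposited (black) and after median-of-ratios (green) or upper-quartile (orange) scaling. Dashed lines give the median of all genes under each scaling, -0.19 as deposited, and the 5 matrix genes lie to the left of it while Pecam1 and Kdr lie to the right.

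Across the 8 libraries the r values set apart a collagen set and a vessel set, with low r between them. All 45 pairs were compared by Pearson's r of log2(FPKM + 1) and by Spearman's rho, each with a two-sided exact permutation test over all pairings of the libraries, adjusted over the 45 pairs. The libraries share their treatment groups and their content of other cells, so a correlation is not specific to these genes. Col1a2 and Col3a1 gave r = 0.93 (exact permutation p = 0.00102, adjusted p = 0.0458) and rho = 0.905 (exact permutation p = 0.00456, adjusted p = 0.0815). It was the only pair under 0.05 after adjustment, by r and not by rho, and the call was lost without any 1 of 7 libraries, under both other scalings and at a pseudocount of 0.1. Within tacrolimus libraries r was 0.89, within vehicle libraries 0.93, and without the pair of libraries farthest from the Col1a2 median 0.92. Without the pair farthest from the Col3a1 median it was 0.81.

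The other collagen pairs and the Dcn pairs with Col1a2 and Col3a1 were positive and did not pass. Col1a1 and Col3a1 gave r = 0.86 (exact permutation p = 0.00709, adjusted p = 0.0575) and rho = 0.881 (exact permutation p = 0.00724, adjusted p = 0.0815). Within the groups r was 0.98 after tacrolimus and 0.52 after vehicle, and without the farthest pair of libraries 0.74. Col3a1 and Dcn gave r = 0.85 (exact permutation p = 0.00598, adjusted p = 0.0575) and rho = 0.762 (exact permutation p = 0.0368, adjusted p = 0.207), and r fell to 0.51 without replicate 1 of each group, so that relation rests on those libraries. Lum stood outside the set, with r from -0.08 to 0.26 against the 4 other matrix genes.

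**Figure D3:**
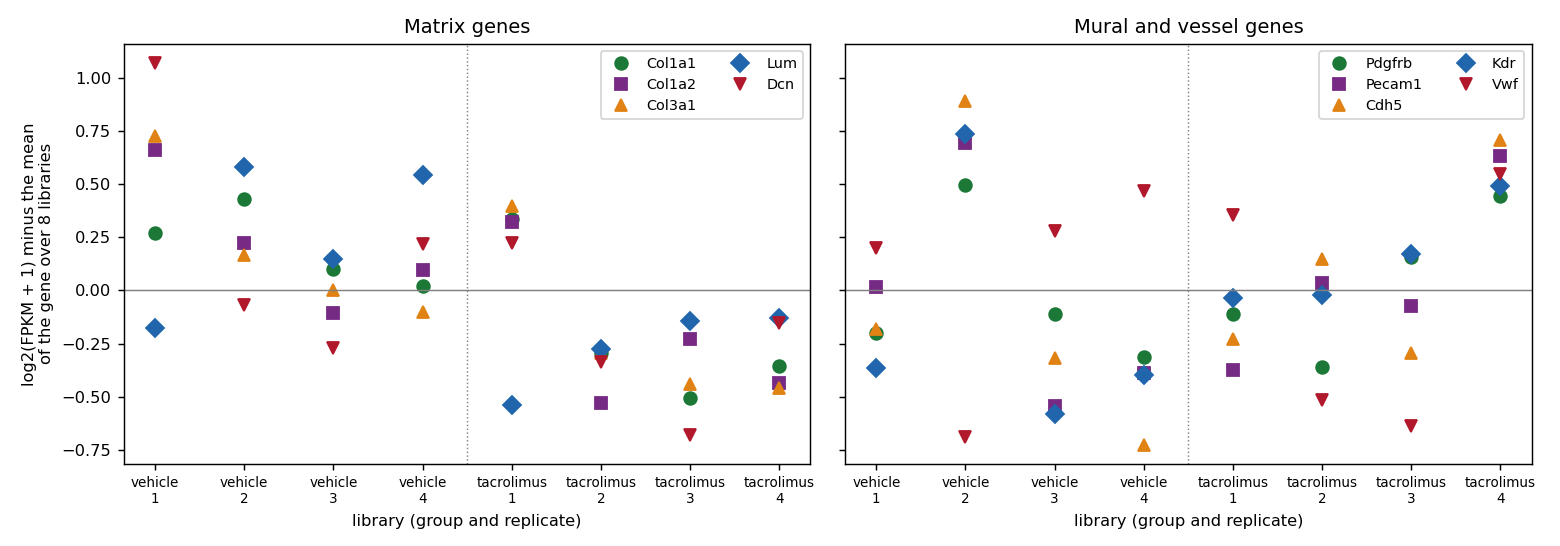
Each gene's log2(FPKM + 1) minus its own mean over the 8 libraries (vertical axis), by library (horizontal axis), for the 5 matrix genes (left) and the 5 mural and vessel genes (right). Col3a1 and Dcn are highest in replicate 1 of both groups, while Pdgfrb, Pecam1, Cdh5 and Kdr are highest in vehicle replicate 2 and tacrolimus replicate 4.

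The vessel set held Pecam1, Cdh5, Kdr and Pdgfrb, whose 6 pairs had r from 0.77 to 0.92. Pecam1 and Cdh5 gave r = 0.92 (exact permutation p = 0.00322, adjusted p = 0.0575) and rho = 0.952 (exact permutation p = 0.00114, adjusted p = 0.0513). Without tacrolimus replicate 4 and vehicle replicate 2, r was 0.61. Pecam1 and Kdr gave r = 0.88 (exact permutation p = 0.00389, adjusted p = 0.0575) and rho = 0.881 (exact permutation p = 0.00724, adjusted p = 0.0815), with r = 0.55 without those libraries. Without them r went from 0.86 to 0.41 for Cdh5 and Kdr and from 0.84 to 0.41 for Pdgfrb and Kdr. For Pdgfrb it went from 0.77 to -0.10 with Cdh5 and from 0.78 to -0.05 with Pecam1. The high values in this set thus rest on those libraries. For Pdgfrb and Kdr r was 0.93 within each group of 4, but each group holds 1 of those libraries. Vwf, whose values fell into separate ranges, had a negative r with each gene of this set. Its r was -0.22 with Pdgfrb, -0.34 with Pecam1, -0.33 with Cdh5 and -0.46 with Kdr. None of these had an unadjusted p under 0.05 (exact permutation test).

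Between the sets r was low over the 8 libraries. The 20 pairs of a matrix gene with Pdgfrb, Pecam1, Cdh5 or Kdr had r from -0.34 to 0.23, with a median of -0.14, and none had an unadjusted p under 0.05. The ratio of Kdr to Col3a1 FPKM accordingly ranged from 0.0191 to 0.127. With the Vwf pairs included, the 25 pairs had r from -0.34 to 0.46, the highest for Vwf with Dcn. Their median was -0.10, and none had an unadjusted p under 0.05 (exact permutation test). With 8 libraries this does not show that the sets are unrelated. Within groups of 4, r of Col1a1 with Pecam1 was 0.94 in vehicle and -0.59 in tacrolimus libraries.

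**Figure D4:**
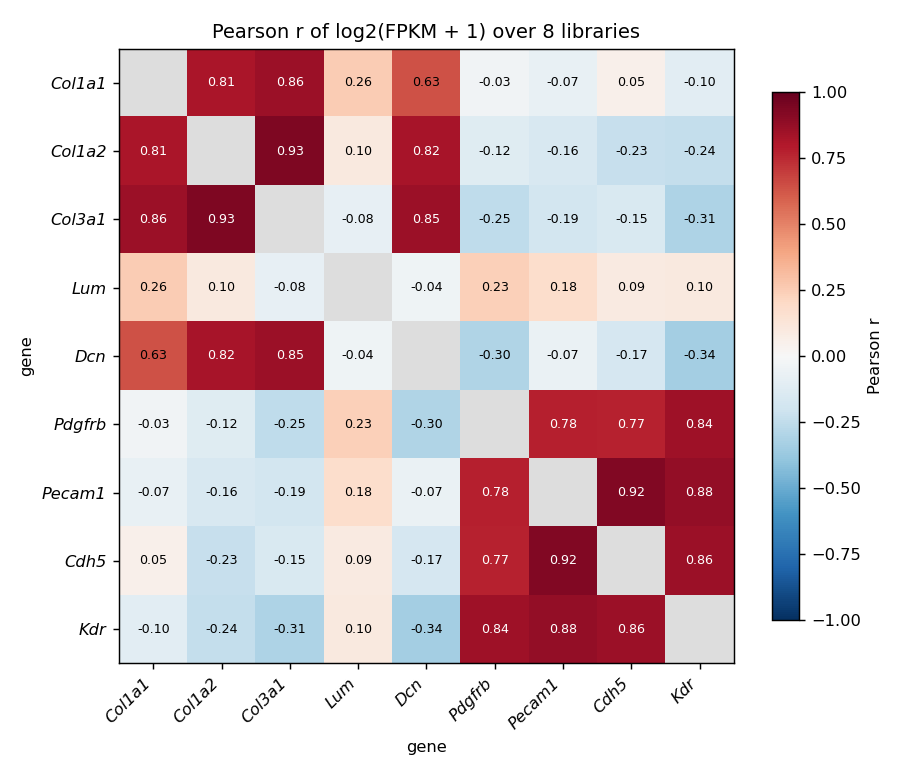
Pearson r of log2(FPKM + 1) over the 8 libraries for each pair of 9 genes (both axes list the genes, Vwf left out), from blue (-1) to red (1). The collagen genes with Dcn and the vessel genes with Pdgfrb form separate red blocks, up to 0.93 for Col1a2 with Col3a1 and 0.92 for Pecam1 with Cdh5, and the values between the blocks run from -0.34 to 0.05.

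Genes with profiles most like the members were sought over the other genes tested, leaving out predicted gene models, as a description over 8 libraries. For the mean of Col1a1, Col1a2 and Col3a1, the 5 most alike were Fgfr1op (r = 0.95), Alkbh4 (0.94), Slc25a45 (0.94), Mx1 (0.93) and Cd209f (0.93), and none is a matrix gene. Mx1, an interferon-induced gene, was at 0.26 to 1.65 FPKM after tacrolimus and 1.52 to 3.42 FPKM after vehicle. The collagen mean was closer to the T cell list than to the list of other fibroblast genes. The 12 T cell genes had a median r of 0.79 with it, 12 macrophage genes 0.58, 20 other fibroblast and fibrillar matrix genes 0.16, and all 13029 genes 0.09. Without vehicle replicate 1 the median was 0.66 for T cell genes, 0.26 for macrophage genes and 0.16 for all genes. Without replicate 1 of both groups it was 0.71 for T cell genes, 0.51 for macrophage genes and 0.50 for all genes. For melanoma genes it was 0.58, against -0.26 over all 8 libraries. The distance between these lists and all genes thus depended on those libraries, as the median of all genes rose from 0.09. Under median-of-ratios scaling the median was 0.72 for T cell genes, 0.47 for macrophage genes and -0.025 for all genes.

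The T cell genes had lower means after tacrolimus, as the collagen genes did, and none passed an adjusted p of 0.05. Their sum was 51.0 to 353 FPKM after tacrolimus and 348 to 1478 FPKM after vehicle, and all 12 had a lower mean and an unadjusted p under 0.05, against 15.8% of all genes, with none at 0 in all libraries. The 12 macrophage genes summed to 227 to 532 FPKM after tacrolimus and 407 to 1732 FPKM after vehicle, with 12 of 12 means lower and 7 at that p. Under median-of-ratios scaling 10 T cell and 3 macrophage genes were lower at that p. The part of these cells in the collagen values was not tested.

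For the mean of Pecam1, Cdh5 and Kdr, the 5 most alike were Gstp-ps (0.96), Gtf2f2 (0.95), Shcbp1 (0.95), Flt1 (0.95) and Prnd (0.94). Flt1, a receptor for VEGF-A like Kdr, was at 3.03, 2.97, 3.95 and 8.19 FPKM after tacrolimus and at 1.26, 11.2, 1.45 and 1.22 FPKM after vehicle. Every tacrolimus library was above 3 vehicle libraries, and vehicle replicate 2 was above all, as for Kdr. Flt1 was picked by its likeness to a mean that includes Kdr, so this is no separate evidence. The 15 other blood endothelial genes tested had a median r of 0.85 with the vessel mean, and 10 of them reached 0.8 or more, against 1.51% of all 13030 genes. These 10 were Flt1, Esam, Cldn5, Plvap, Sox18, Emcn, Mmrn2, Ramp2, Cd34 and Ecscr. Without tacrolimus replicate 4 and vehicle replicate 2, the median was 0.54 for the endothelial list and -0.32 for all genes, and 2 of the 15 endothelial genes reached 0.8. Basement membrane genes, among them Col4a1 and Col4a2, had a median r of 0.68, and pericyte genes 0.58, with Rgs5 and Mcam at 0.8 or more. Without the same libraries these medians were 0.11 and 0.18, with none at 0.8 or more.

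**Figure D5:**
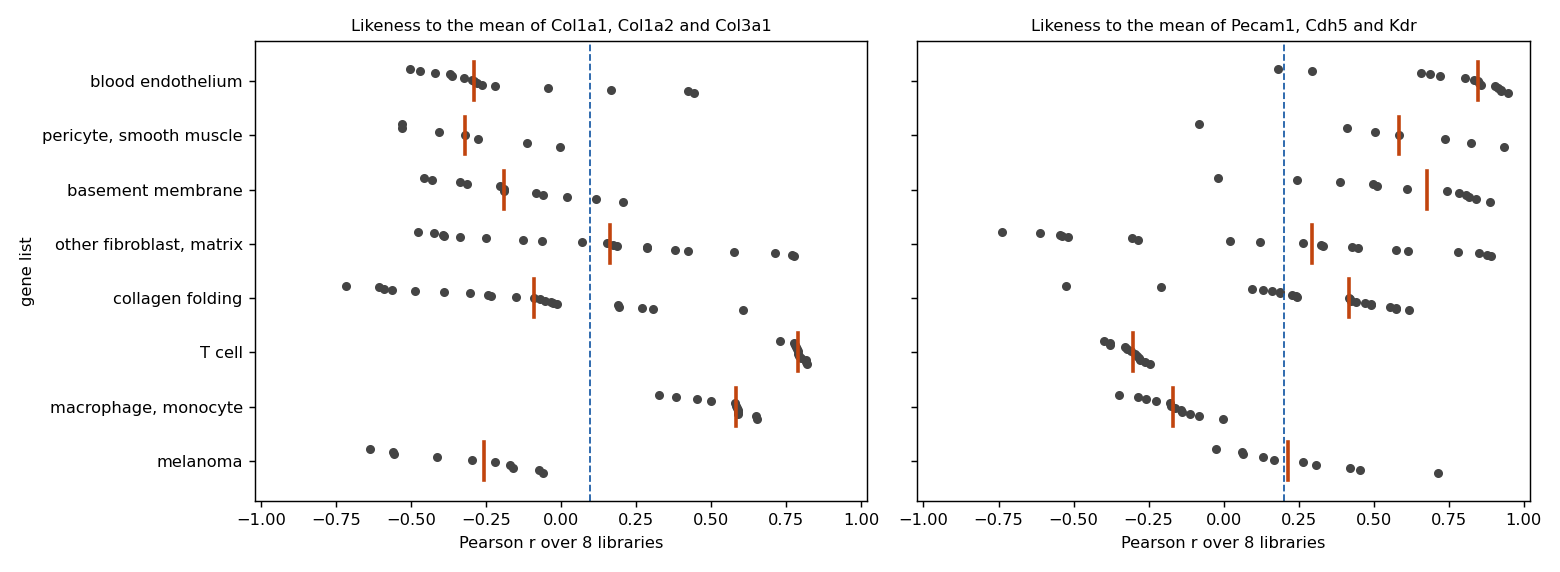
Pearson r over the 8 libraries (horizontal axis) of each tested gene of 8 lists (points) with the mean of Col1a1, Col1a2 and Col3a1 (left) or of Pecam1, Cdh5 and Kdr (right); orange bars are list medians and the dashed line is the median of all genes tested (0.09 left, 0.20 right). T cell genes lie highest on the left, with a median of 0.79, and blood endothelial genes highest on the right, with a median of 0.85.

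Other genes of the same tissues showed no difference that passed the test, and their lists split between the directions. Of 30 further fibroblast and fibrillar matrix genes 20 were tested, 13 with a lower and 7 with a higher mean after tacrolimus, and their median difference was -0.06. Thy1, which also marks mouse T cells, had the smallest p with a difference of -1.10 (SE 0.59, adjusted p = 0.349, limma), and Col6a3, a collagen VI gene, differed the other way by 0.59 (SE 0.33, adjusted p = 0.362, limma). Under median-of-ratios scaling the split of this list turned to 13 higher of 20.

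Of 24 genes that fold, cross-link and process collagen, 21 were tested, 15 with a lower and 6 with a higher mean, with a median of -0.11. Lox, the enzyme that cross-links collagen fibrils, was at 0.40 to 1.32 FPKM after tacrolimus and at 1.26 to 1.91 FPKM after vehicle, a difference of -0.59 (SE 0.23, unadjusted p = 0.0286, adjusted p = 0.245, limma). It passed the filter through the 4 vehicle libraries and 1 tacrolimus library, which favors a lower tacrolimus mean among genes of its level. P4hb, a subunit of the enzyme that hydroxylates collagen prolines and a general folding enzyme, was the highest at 298 to 462 FPKM. Under median-of-ratios scaling 13 of the 21 were higher. Of the other small proteoglycans only 3 of 12 were tested, and Bgn, the closest relative of Dcn, was at 5.72 to 10.3 FPKM after tacrolimus and 4.11 to 10.9 FPKM after vehicle.

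Among the genes tested, the blood and lymphatic endothelial lists did not share 1 direction. Of the 15 other blood endothelial genes tested, 11 had a higher and 4 a lower mean after tacrolimus, with a median of 0.48, against 24.3% of all genes with a higher mean. The median was 0.18 over the 11 genes at 1 FPKM or more in all libraries and 0.17 over all 26, and the summed level was 141 FPKM after tacrolimus and 140.1 FPKM after vehicle on average. Both lymphatic endothelial genes tested, 2 of 7 listed, had lower means, with a median of -0.42. That direction depended on the filter. At a mean of 0.5 FPKM or more 3 of 5 lymphatic genes were higher, and with no filter 4 of 7, with medians of 0.0061 in both. Plvap, a protein of endothelial openings, differed by 0.89 (SE 0.54, adjusted p = 0.402, limma). S1pr1, which lymphocytes also express, differed by -0.84 (SE 0.30, unadjusted p = 0.0197, adjusted p = 0.225, limma). Without vehicle replicate 2 the median was 0.83 with 12 of 15 higher, and without vehicle replicate 1 it was 0.25 with 9 of 15 higher. The lean of this list therefore varied with single vehicle libraries, as that of Kdr did.

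Of 12 pericyte and smooth muscle genes 7 were tested, 6 with a higher mean and a median of 0.20. The median was 0.07 with 4 of 7 higher without tacrolimus replicate 4, and 0.61 without tacrolimus replicate 2. Kcnj8, a pericyte potassium channel gene, was at 1.56 to 4.19 FPKM after tacrolimus and 0.43 to 2.19 FPKM after vehicle, a difference of 0.85 (SE 0.32, unadjusted p = 0.0250, adjusted p = 0.236, limma). Like Kdr, it passed the filter through the 4 tacrolimus libraries and 1 vehicle library. Rgs5, a gene of pericyte signaling, differed by 1.06 (SE 0.53, adjusted p = 0.318, limma). The 12 basement membrane genes split 6 to 6, with a median of 0.06. Under both other scalings 11 of 12 were higher, and 2 of 12 were when vehicle replicate 1 was left out. Of 11 VEGF, angiopoietin and PDGF ligand genes 8 were tested, 5 higher and 3 lower. Vegfa, the ligand of the Kdr receptor, was abundant at 62.4 to 119 FPKM and differed by 0.15 (SE 0.20, adjusted p = 0.698, limma). Skin markers were low. None of 10 keratinocyte genes passed the filter, their sums were 0.54 to 3.70 FPKM, and Krt1, Krt15, Dsg3 and Lor were at 0 in all libraries.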

How the data were processed

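RNA-seq libraries from 4 tacrolimus and 4 vehicle mice were analysed, grouped and numbered by their titles. The submitters' processing notes name HISAT2 2.1.0, RSEM 1.3.1, DESeq2 1.24.0 and the build GRCm38.p6, without roles. The deposited FPKM values, already scaled for length and depth by the authors, name no unit. It was inferred from low values of single-transcript genes of 500 to 1500 bases, 86.0% to 87.6% of which lay within 0.15 of whole multiples of a step, against 30% for even spacing. The same steps gave the estimated depth. Counts were not recovered and no count model was used, although the planned design named one for counts.

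Genes with 1 FPKM or more in at least 4 libraries were tested as log2(FPKM + 1) with limma 3.58.1 (R 4.3.3) and Benjamini-Hochberg adjustment. On simulated data for 13032 genes, 53 of 100 genes changed by 1 and 81 of 100 changed by 2 on the log2 scale were recovered. The members and lists were chosen with earlier results of these data known. Of some lists the text names the gene of highest mean and some of those 2 with the smallest p, and of other lists neither. It also names the 5 genes most like each set. A list of skeletal muscle and adipocyte genes was run and is not described. Some further genes, among them Pdgfra, Tcf21, Twist1, Fap and Tek, were named by choice. Alternatives covered scaling, filter, pseudocount, a replicate block and each library left out. With 4 mice per group, p-values reflect the spread between mice. At these depths the members rest on an estimated 4 to 3645 fragments per library.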

Additional observations from a re-analysis of the deposited data

Results flagged for a closer look

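Among the 20 groups of 4 libraries formed by the 10 genes and both treatments, 2 held a library set far apart from the others by Dixon's test, and chance alone picks out about 1 in 20 groups. Col3a1 was at 33.07 FPKM in tacrolimus replicate 1, beside 17.8 to 20.1 FPKM in the other 3 tacrolimus libraries. Kdr was at 2.86 FPKM in vehicle replicate 2, beside 0.55 to 0.80 FPKM in the other 3 vehicle libraries.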

How the results depend on the processing

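Of 144 values of the members' differences under other settings, 138 kept their sign and their side of the threshold and 6 changed sign, and no member passed an adjusted p of 0.05 under any setting. Pecam1 ran from -0.08 to 0.36 with single libraries left out, at -0.082 without tacrolimus replicate 4, -0.05 without vehicle replicate 3 and -0.0014 without vehicle replicate 4. Vwf ran from -0.38 to 0.07, at 0.02 without tacrolimus replicate 2, 0.066 without tacrolimus replicate 3 and 0.0075 without vehicle replicate 4. Over all genes, at an unadjusted p under 0.05, 426 were higher without the filter, 675 were higher and 801 lower under median-of-ratios scaling, and 741 and 691 under upper-quartile scaling. With libraries left out, between 144 and 289 were higher and between 1313 (without tacrolimus replicate 3) and 2500 lower, and 0 to 1 genes were called higher, the 1 without vehicle replicate 1. Deviations of same-numbered libraries correlated at 0.21, 0.28, -0.02 and -0.02, beside -0.32 to 0.15 for libraries of different number. These correlations do not settle whether the replicate numbers pair. With the replicate number as a block, 6 genes were called higher and 115 lower, none of them a member. Under that block 4 of 8 members were lower at an unadjusted p under 0.05 (limma), against 1 without it. Of all genes 2587 were lower at that p, against 2056. The count of pairs of members under 0.05 was 0 to 1 with libraries left out, 0 without each of 7 libraries, and 0 under both scalings and a pseudocount of 0.1. These pair settings and those of the likeness values were chosen after seeing the data. The causes of these changes were not tested. The lowest depth behind a member's value was an estimated 4 fragments, for Cdh5.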
